A study of Homo sapiens with 4 samples.

Results

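The genes described here are 52 genes of the interferon response and of antigen presentation by major histocompatibility complex (MHC) class I. They comprise 28 genes that interferon induces, 11 genes that carry the interferon signal and 13 genes of class I presentation. They were picked by name and looked up among the 21357 genes in the platform annotation of 4 Affymetrix arrays, which measured RNA of SW620, a human colon cancer line established from a lymph node metastasis. Of the arrays, 2 hold RNA of a CD133+ clone and 2 hold RNA of a CD133- clone. Both clones were grown from single SW620 cells after magnetic sorting for CD133, the surface protein encoded by PROM1, and were sorted for CD133 again before RNA extraction. Both grew in Leibovitz's L-15 medium with serum, penicillin and streptomycin, and no interferon or other agent is named in the labels. Each group is 1 clone, so CD133 status and clone cannot be told apart, and whether a clone's 2 arrays stand for separate cultures is not stated. The p-values thus reflect array-to-array spread alone, possibly technical. Each member is given by its brightest probe set, the one of highest mean signal on the 4 arrays, whether the annotation names the member alone or with other genes. Probe sets were found for 51 of the 52 members. STAT2 was not analysed here.

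Interferons are cytokines released on viral infection. Type I interferon binds the receptor pair IFNAR1 and IFNAR2, and interferon gamma binds IFNGR1 and IFNGR2. Kinases on these receptors, JAK1 and TYK2 among them, activate STAT proteins, which with IRF9 enter the nucleus and bind the interferon-stimulated response element (ISRE) in the promoters of antiviral genes. The same cytokines raise MHC class I, the complex of an HLA heavy chain with B2M that shows peptides to cytotoxic T cells. Peptides are cut by the immunoproteasome subunits PSMB8, PSMB9 and PSMB10, carried into the endoplasmic reticulum by TAP1 and TAP2, trimmed by ERAP1 and loaded with the help of TAPBP. Colon epithelial cells express this machinery, and its loss is a known route by which colorectal tumours escape T cells.

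The promoters of many of these genes carry the sequence through which interferon acts, and 3 of them are shown because they belong to the members on which the comparison turns. ISG15 and IFITM3 were higher in CD133+ cells, and IFIH1 had the most negative difference of the members tested. RefSeq (GRCh38.p14) windows from 250 bases before to 50 bases after each start site were searched on both strands for the ISRE core, which is GAAA, any 2 bases, then GAAA. Capitals mark matches in the 170 bases before the start site, and overlapping matches run together. Each sequence is written 5' to 3' on the gene's own strand.
ISG15, chr1:1013327-1013496, plus strand: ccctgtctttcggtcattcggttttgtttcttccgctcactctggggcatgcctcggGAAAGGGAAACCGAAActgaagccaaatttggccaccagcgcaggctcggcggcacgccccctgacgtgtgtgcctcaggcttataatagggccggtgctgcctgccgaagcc
IFITM3, chr11:320861-321030, minus strand: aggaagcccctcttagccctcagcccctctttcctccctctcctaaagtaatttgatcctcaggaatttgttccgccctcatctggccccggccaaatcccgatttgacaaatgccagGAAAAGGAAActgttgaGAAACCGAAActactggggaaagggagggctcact
IFIH1, chr2:162318685-162318854, minus strand: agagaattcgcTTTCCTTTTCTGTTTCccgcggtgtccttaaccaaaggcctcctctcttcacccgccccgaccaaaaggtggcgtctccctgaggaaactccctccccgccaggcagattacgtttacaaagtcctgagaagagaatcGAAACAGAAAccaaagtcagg

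A window was listed for 41 of the 52 members, IFITM2 not among them. The ISRE core was present in 24 of these 41 members (58.5%), against 4.38% of the 27305 genes with a window. It was present in 16 of 22 interferon-induced members and in 8 of 11 class I members, B2M, TAP1, TAP2, TAPBP, PSMB8, PSMB10, HLA-F and ERAP1 among them, but in 0 of 8 signalling members. The core of the gamma-activated site (TTC, any 3 bases, GAA), the same on both strands, was present in 10 of 41 members and in 9.38% of all genes. ISG15 holds a pair of overlapping ISRE cores. IFIH1 holds such a pair on the opposite strand and a further core nearer the start site, and IFITM3 holds 2 cores that do not overlap. Among tested members the median log2 difference between the clones was -0.068 for the 20 with an ISRE core and 0.019 for the 15 without. Holding these letters thus did not go with a common direction.

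PROM1, the sorted antigen, had log2 signals of 8.46 and 8.73 in the CD133+ clone against 3.31 and 3.35 in the CD133- clone, as the labels say. Over all 15820 genes tested, 207 were higher and 369 lower in CD133+ cells in limma at an adjusted p under 0.05. The share of higher genes among those called was 35.9% here, after quantile normalization, and 21.1% without it, 11.4% with arrays centred on their medians. With these scalings the median over all genes went from 0.058 to 0.028 and -0.051. The deposited upper quartile was highest on CD133- replicate 1, at 6.91, with the others between 6.61 and 6.71. CD133+ replicate 2 had the largest 3' over 5' log2 difference of ACTB, 1.92 against 0.71 to 1.18, a sign of RNA length. Differences below are log2, CD133+ minus CD133-, and SE is the limma standard error.

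Of the 51 members measured, 46 passed the filter on low signal, a mean log2 signal of 3.75 over the 4 arrays. In limma 3 of these 46 were higher in CD133+ cells and 0 were lower, IFITM2, IFITM3 and ISG15. These are 6.52% of the tested members, against 3.64% of all genes called in either direction, 1.31% called higher and 2.33% called lower. At an unadjusted p under 0.05 there were 12 members, 9 higher and 3 lower, where 20.6% of all genes passed. The arrays of the clones did not overlap for 24 of the 46 members (52.2%), against 51.6% of all genes (30.4% higher and 21.2% lower). The median difference of the members was 0.055, close to the 0.058 of all genes, and no member differed by 2-fold. As a whole, the interferon and class I genes stood where the other genes stood. The higher share called rests on 3 members, and whether it differs from that of all genes was not tested.

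**Figure D1:**
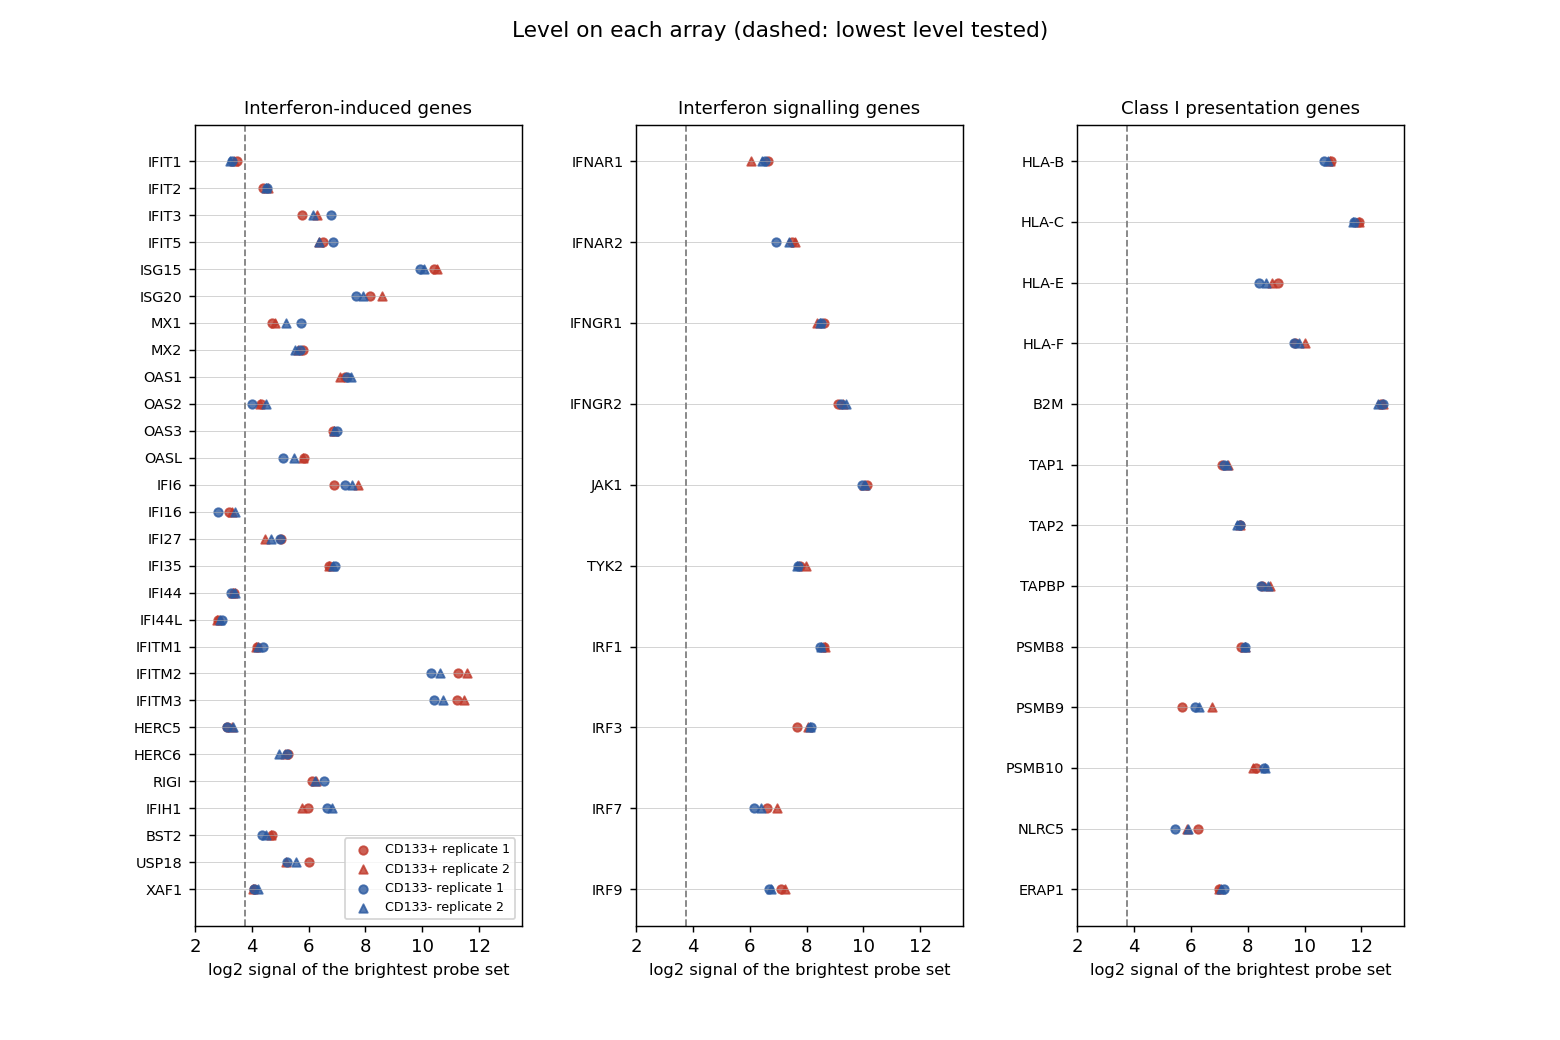
Log2 signal of the brightest probe set of each of the 51 measured members on the CD133+ arrays (red) and CD133- arrays (blue), in 3 panels by role, with circles for replicate 1 and triangles for replicate 2. The red and blue points of IFITM2, IFITM3 and ISG15 lie apart, while those of B2M, TAP1 and TAP2 lie on each other, and 5 interferon-induced genes lie below the dashed line at 3.75; signals of different probe sets are not on a common scale.

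The interferon-induced genes held all 3 calls, in 23 tested members of 28. That is 13.0% of those tested, against 3.64% of all genes called and 1.31% called higher. The other 5 members, IFIT1, IFI16, IFI44, IFI44L and HERC5, had signals between 2.78 and 3.49 on all arrays and were left out by the filter; none of them passed when all 28 were tested without it. IFIT1, an RNA-binding inhibitor of viral translation, had 3.49 and 3.37 in the CD133+ clone against 3.30 and 3.23 in the CD133- clone. Of the 23, 10 had a positive and 13 a negative difference, with a median of -0.075. The calls were thus all upward in a group whose typical member did not lean upward.

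IFITM2 and IFITM3, membrane proteins that block the fusion of enveloped viruses with the cell, had the largest positive differences of the members. IFITM2 had log2 signals of 11.24 and 11.57 in the CD133+ clone against 10.31 and 10.61 in the CD133- clone. Its means were 11.41 ± 0.23 (SD, n = 2) and 10.46 ± 0.22 (SD, n = 2), which gives 0.94 (SE 0.14, 1.92-fold, limma adjusted p = 0.0136). IFITM3 had 11.23 and 11.46 against 10.39 and 10.71, a difference of 0.79 (SE 0.12, 1.73-fold, limma adjusted p = 0.0184). On both probe sets the lower CD133+ array lay above the higher CD133- array, and within each clone replicate 2 was the higher array. Both probe sets carry the Affymetrix suffix for probes that also match other sequences, so the IFITM2 and IFITM3 values may not be independent measurements. Without CD133- replicate 1 the difference was 0.79 for IFITM2 (limma adjusted p = 0.0484) and 0.63 for IFITM3 (limma adjusted p = 0.0852), and IFITM2 was then the only interferon-induced member called.

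IFITM1, the member of the family found mainly at the cell surface, did not pass. Its brightest probe set, which the annotation gives to both IFITM1 and IFITM2, had 4.17 and 4.13 in the CD133+ clone against 4.41 and 4.23 in the CD133- clone. The difference was -0.17 (SE 0.17, 95% interval -0.56 to 0.22, limma adjusted p = 0.609). The probe set naming IFITM1 alone had 3.91 and 4.06 against 3.71 and 3.59, the opposite sign, and a fit on it gave 0.33 (limma adjusted p = 0.269). Both were close to the lowest level tested. With the mean over its probe sets, the low shared one included, IFITM2 was at 0.39 and did not pass (limma adjusted p = 0.175).

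ISG15, a ubiquitin-like protein that is attached to other proteins during the response, was the third member called. Its signals were 10.43 and 10.52 in the CD133+ clone against 9.93 and 10.06 in the CD133- clone. The difference was 0.48 (SE 0.094, 1.39-fold, limma adjusted p = 0.0347), smaller than those of the IFITM genes, with narrow spread in both clones. It rested on particular choices. The limma adjusted p was 0.283 without CD133- replicate 1, 0.0704 without CD133- replicate 2, 0.0526 in the deposited values and 0.158 with centred arrays. The other members of the ISG15 system did not pass. USP18, the protease that removes ISG15, had CD133+ arrays on either side of both CD133- arrays and a difference of 0.21 (95% interval -0.46 to 0.88). HERC6, a relative of the human ISG15 ligase HERC5, was at 0.11 (95% interval -0.37 to 0.59).

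ISG20, an exonuclease that degrades single-stranded RNA, had a larger difference than ISG15 but a wider spread. It had 8.16 and 8.59 in the CD133+ clone against 7.67 and 7.90 in the CD133- clone. The groups did not overlap, but the difference of 0.59 (SE 0.18) did not pass (limma adjusted p = 0.112). Both of its probe sets had this sign. It passed without CD133+ replicate 1, at 0.81 (limma adjusted p = 0.0225). It was at 0.38 (limma adjusted p = 0.380) without CD133+ replicate 2 and at 0.48 (0.492) without CD133- replicate 1.

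IFIH1, which encodes MDA5 and binds long double-stranded RNA, had 5.96 and 5.78 in the CD133+ clone against 6.65 and 6.81 in the CD133- clone. Its difference of -0.86 (SE 0.20, 95% interval -1.33 to -0.40) was the most negative of the members and missed the threshold (limma adjusted p = 0.0586). It passed with centred arrays, at -1.04 (limma adjusted p = 0.0392), and with genes below the median level left out (0.0483). It did not pass with the mean of its probe sets, at -0.46 (limma adjusted p = 0.146), or with any 1 array left out (0.0877 to 0.190). Its other 2 probe sets were also negative, but their mean signals of 3.23 and 3.11 lay below the filter. RIGI, the sensor of short RNA with a 5' triphosphate, was at -0.18 (95% interval -0.66 to 0.30), with 2 of 3 probe sets of this sign. The arrays separated the clones for IFIH1 and overlapped for RIGI. DHX58, the third receptor of this family and not a member, had the opposite sign, with 4.84 and 4.85 against 4.42 and 4.50, at 0.38 (limma adjusted p = 0.281).

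MX1, a dynamin-like GTPase that traps viral particles, had 4.70 and 4.83 in the CD133+ clone against 5.74 and 5.19 in the CD133- clone. The difference was -0.70 (SE 0.24, limma adjusted p = 0.155), and -0.43 without CD133- replicate 1, the highest of the 4 arrays. Its relative MX2 was at 0.12 (95% interval -0.37 to 0.61). The arrays of the clones lay apart for MX1 and overlapped for MX2.

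The oligoadenylate synthetases make the messenger that activates RNase L. OAS1 had 7.29 and 7.11 against 7.36 and 7.49, a difference of -0.22 (limma adjusted p = 0.475). OAS2 was at 0.069, with its other probe sets at -0.64 and -0.023, and OAS3 at -0.075. The second probe sets of OAS1 and OAS3 were at -0.48 and 0.035. OASL, a catalytically inactive relative, had 5.84 and 5.81 in the CD133+ clone against 5.09 and 5.49 in the CD133- clone. Its difference was 0.53 (SE 0.23, limma adjusted p = 0.229), with both probe sets positive, and was 0.33 to 0.73 with 1 array left out. Of the IFIT proteins, which bind viral RNA, IFIT2 was at -0.044 and IFIT5 at -0.18. IFIT3 had 5.76 and 6.28 against 6.77 and 6.15, so that its arrays overlapped, and a difference of -0.44 (limma adjusted p = 0.408). That value was -0.75 to -0.13 with 1 array left out, and its other probe set was at -0.024. No member of these families passed.

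Of the remaining induced members, BST2, the tether that holds budding virus at the cell surface, was at 0.26 (limma adjusted p = 0.451). XAF1, a pro-apoptotic protein, was at -0.092, IFI35 at -0.16, IFI27 at -0.085 and IFI6, a mitochondrial protein, at -0.083. IFI6 had 6.89 and 7.73 in the CD133+ clone against 7.28 and 7.51 in the CD133- clone, so its CD133+ arrays enclosed the others. For these 5 genes the limma adjusted p lay between 0.451 and 0.889.

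**Figure D2:**
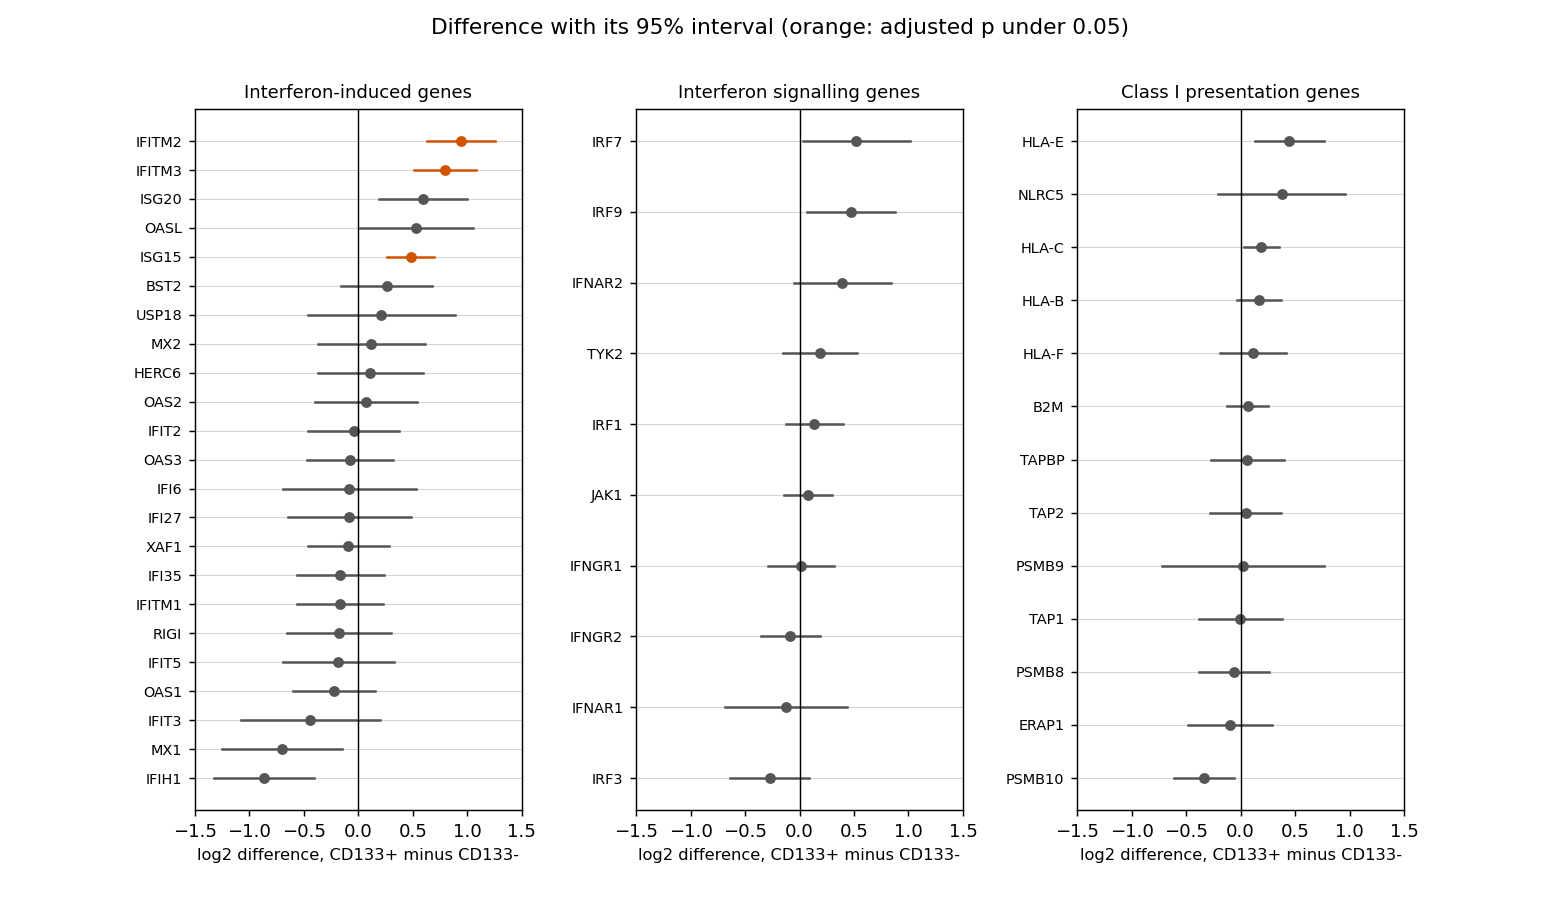
Log2 difference (CD133+ minus CD133-) of the 46 tested members with its 95% interval from the limma fit, in 3 panels by role and sorted by size, with members at an adjusted p under 0.05 in orange. IFITM2, IFITM3 and ISG15 are orange, IFIH1 at -0.86 lies lowest, and the intervals of B2M (-0.12 to 0.25) and JAK1 (-0.14 to 0.30) are among the narrow ones around 0.

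None of the 10 tested signalling members was called in limma. At an unadjusted p under 0.05 there were 2, IRF7 and IRF9, where 20.6% of all genes passed. The median difference of the 10 was 0.11, with 7 positive and 3 negative. That balance followed the scaling, with 6 positive of 10 in the deposited values and 3 of 10 with centred arrays. Of the receptor chains, IFNGR1 had 8.62 and 8.37 against 8.50 and 8.46, a difference of 0.016 (95% interval -0.29 to 0.32), which turned to -0.10 in the deposited values and -0.18 with centred arrays. IFNGR2 was at -0.083 (95% interval -0.35 to 0.18) and IFNAR1 at -0.12 (95% interval -0.68 to 0.43). Another IFNAR1 probe set had 6.11 and 6.02 against 6.84 and 6.56, a difference of -0.63, and the mean over its 4 probe sets gave -0.35 (limma adjusted p = 0.325). IFNAR2 had clone means of 7.55 and 7.15, its arrays did not overlap, and it differed by 0.39 (SE 0.19, limma adjusted p = 0.291). With 1 array left out it was at 0.16 to 0.62, 1 of its 3 probe sets was at -0.25, and their mean gave 0.14. No receptor chain passed the test.

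The kinase JAK1, shared by all these receptors, had 10.14 and 10.02 against 9.96 and 10.04 on its brightest probe set. The difference was 0.077, and -0.050 with centred arrays. Another of its 5 probe sets had 7.78 and 5.79 in the CD133+ clone against 7.45 and 7.03 in the CD133- clone. The low value was on CD133+ replicate 2, the array with the largest 3' over 5' difference of ACTB, and the part of RNA length in it was not tested. TYK2, the partner kinase of the type I receptor, had 7.77 and 7.97 against 7.71 and 7.65, a difference of 0.19 (95% interval -0.15 to 0.53), and of -0.056 with centred arrays.

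Among the transcription factors, IRF7, which drives interferon alpha genes, had 6.61 and 6.97 in the CD133+ clone against 6.15 and 6.38 in the CD133- clone. The difference was 0.52 (SE 0.21, limma adjusted p = 0.215), and 0.34 to 0.70 with 1 array left out. IRF9, the DNA-binding part of the complex that recognises the ISRE, had 7.10 and 7.25 against 6.66 and 6.75, a difference of 0.47 (SE 0.17, limma adjusted p = 0.180). A dimmer probe set that names both IRF9 and RNF31 had the opposite sign, -0.48, and the mean of the pair was -0.0047. IRF3, the factor that sensors activate, had 7.68 and 8.04 against 8.15 and 8.11, a difference of -0.27 (SE 0.16, limma adjusted p = 0.362), and -0.45 to -0.095 with 1 array left out. IRF1 was at 0.14 (95% interval -0.13 to 0.40), and at -0.055 with centred arrays. For IRF7, IRF9, IRF3 and IRF1 the arrays of the clones did not overlap, as in 51.6% of all genes, and none passed.

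None of the 13 class I members was called in limma. At an unadjusted p under 0.05 there were 3, HLA-E, HLA-C and PSMB10, where 20.6% of all genes passed. The median difference was 0.063 with 9 positive and 4 negative members. It was -0.053 with 6 positive in the deposited values and -0.13 with 4 positive with centred arrays, so no direction can be given for the group. Among the heavy chains, HLA-E, the ligand of NKG2 receptors on natural killer cells, had 9.06 and 8.85 in the CD133+ clone against 8.39 and 8.64 in the CD133- clone. Its difference was 0.45 (SE 0.14, limma adjusted p = 0.124), and all 3 of its probe sets were positive, at 0.45, 0.51 and 0.51. In CD133+ cells HLA-E thus had the higher arrays on each probe set without passing the threshold.

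HLA-C had 11.92 and 11.91 in the CD133+ clone against 11.73 and 11.72 in the CD133- clone. The difference of 0.19 (SE 0.071, 95% interval 0.027 to 0.36, limma adjusted p = 0.183) was small but even across its 4 probe sets, from 0.18 to 0.27. HLA-B had 10.94 and 10.89 against 10.67 and 10.82, a difference of 0.17 (SE 0.088, limma adjusted p = 0.314), and HLA-F was at 0.12 (95% interval -0.19 to 0.42), which turned to -0.017 with centred arrays. The brightest probe sets of HLA-B, HLA-C, HLA-E and HLA-F all carry the suffix for probes that match other sequences, so signal of related HLA genes cannot be told apart in them. Every probe set of HLA-B and HLA-C carries it, so the evenness across those of HLA-C may not be independent. Probe sets without it were at 0.51 for HLA-E and 0.11 for HLA-F, the latter with a mean signal of 4.77. B2M, the shared light chain, had 12.71 and 12.76 against 12.76 and 12.58. Its difference was 0.066 (95% interval -0.12 to 0.25), and -0.020 with centred arrays.

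Among the genes that supply peptides, the arrays of the clones overlapped except for PSMB10 and ERAP1. Over all genes, 51.6% did not overlap. TAP1 had 7.11 and 7.30 in the CD133+ clone against 7.16 and 7.25 in the CD133- clone, a difference of -0.0024 (95% interval -0.39 to 0.38). TAP2 was at 0.047 and TAPBP at 0.063, both negative in the deposited values (-0.12 and -0.053). PSMB8 was at -0.061 (95% interval -0.38 to 0.26). PSMB9 had 5.70 and 6.74 on the CD133+ arrays, on either side of the CD133- values of 6.14 and 6.27, and its difference of 0.019 had an interval from -0.73 to 0.76. PSMB10 had 8.30 and 8.20 against 8.57 and 8.60, which gives -0.33 (SE 0.12, limma adjusted p = 0.173). The aminopeptidase ERAP1 was at -0.10 (95% interval -0.48 to 0.28), with all 5 probe sets negative. NLRC5, the transactivator of class I genes, had 6.24 and 5.85 against 5.43 and 5.91, and differed by 0.38 (SE 0.25, limma adjusted p = 0.436), or by 0.14 to 0.61 with 1 array left out.

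The tested members were set against their neighbours on the chromosome, the 10 tested genes on either side with members left out. The called members and some others are given here. IFITM2, IFITM1, IFITM3 and IRF7 lie together near the short-arm end of chromosome 11. All 12 neighbours of IFITM2 and all 14 of IFITM3 had a positive difference, with medians of 0.36 and 0.33, against 58.5% of all genes. For IRF7 17 of 20 neighbours were positive, with a median of 0.31. These sets are not independent, as the 12 are all among the 14 and some of them are also neighbours of IRF7. Of these neighbours, 1 of IFITM2, 1 of IFITM3 and 2 of IRF7 were called in limma, where 3.64% of all genes were called. The called neighbour of IFITM2 and of IFITM3 is the same gene, BET1L. The neighbours of IFITM2 and IFITM3 were all positive also in the deposited values (median 0.27) and with centred arrays (median 0.20). Over all 962 tested genes of chromosome 11 the median was 0.082. IFITM2 and IFITM3 thus lie in a run of genes with mostly positive differences, few of which passed. Their own differences were above the median of the run. IFITM1 inside it was at -0.17 on the probe set shared with IFITM2. It was at 0.33 on the probe set naming it alone, and both were of low signal.

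**Figure D3:**
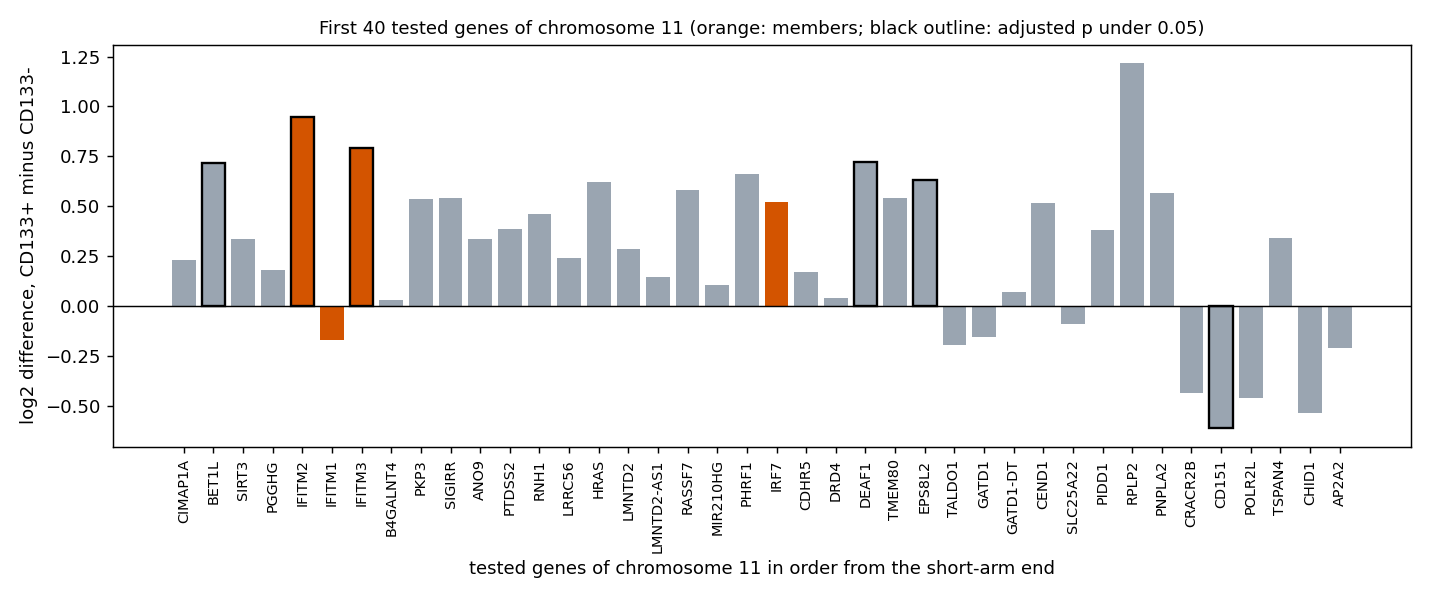
Log2 difference (CD133+ minus CD133-) of the first 40 tested genes of chromosome 11 in order from the short-arm end, with members in orange and genes at an adjusted p under 0.05 outlined. Of the 40 genes 31 have a positive difference, IFITM2, IFITM3 and IRF7 among them. IFITM1 is drawn at -0.17, from a probe set of low signal shared with IFITM2, and its own probe set was at 0.33.

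IFIH1 lies on chromosome 2. Of its 20 neighbours 6 had a positive difference, against 58.5% of all genes, and the median was -0.47. In limma 8 of the 20 were called, where 3.64% of all genes were. The further pathway genes SP110 and NMI, given below, also lie on chromosome 2, and their neighbours were not examined. ERAP1, on chromosome 5, had a neighbour median of -0.26, more negative than its own -0.10. ISG15, on chromosome 1, had 17 of 20 neighbours positive with a median of 0.21, and 14 of 20 with a median of 0.092 with centred arrays. For MX1 on chromosome 21, OASL on chromosome 12 and IRF9 on chromosome 14 the neighbour medians were 0.019, 0.048 and 0.052, all within 0.1 of 0. Mostly positive neighbours also lay around members that were not above 0. IRF3, at -0.27, had 16 of 20 neighbours positive with a median of 0.28, and PSMB10, at -0.33, had 18 of 20 with 0.17. TAP1, at -0.0024, had 13 of 17 with 0.29, and a median of 0.24 with centred arrays.

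**Figure D4:**
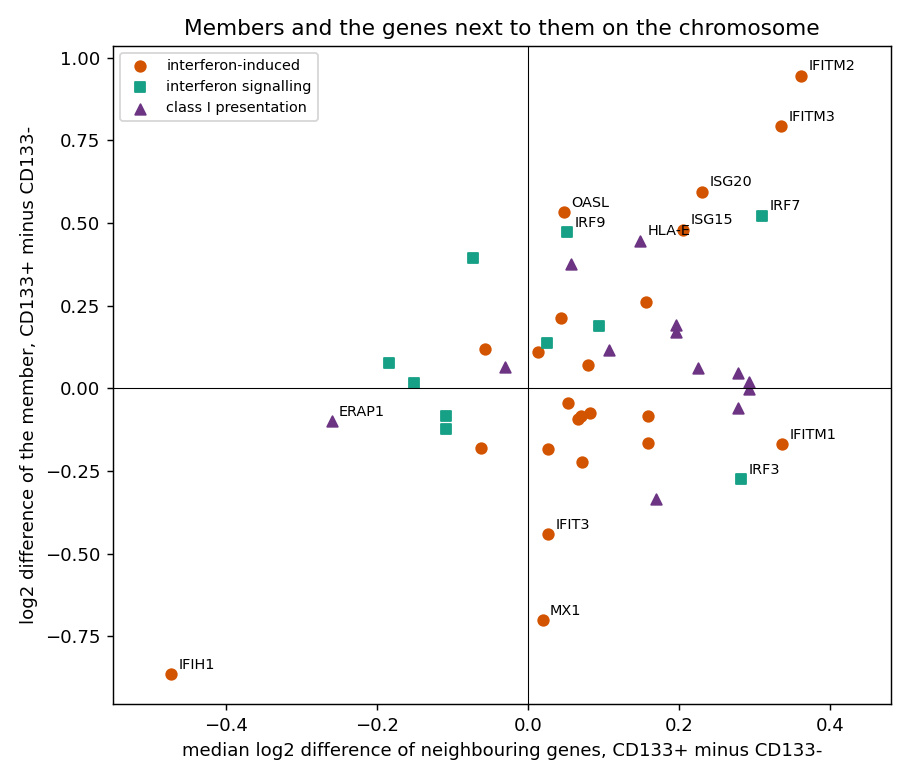
Log2 difference of each of the 46 tested members (vertical axis) against the median log2 difference of its neighbours on the chromosome (horizontal axis), both CD133+ minus CD133-, with colour and shape by role. IFITM2, IFITM3 and IRF7 lie at upper right and IFIH1 at lower left, whereas MX1 and OASL lie far from 0 with neighbours near 0. IRF3, at -0.27, lies below 0 with a neighbour median of 0.28.

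Further genes of the same pathways, and ligands of the receptor NKG2D listed with them, gave a similar picture. Of 65 tested, 1 was higher and 1 was lower in limma, 3.08% against the 3.64% of all genes. ULBP2, a stress-induced ligand of the activating receptor NKG2D, had 9.87 and 10.01 in the CD133+ clone against 9.18 and 9.03 in the CD133- clone. It rose by 0.84 (SE 0.11, 1.79-fold, limma adjusted p = 0.0109), and both of its probe sets were higher, by 0.84 and 0.87. SP110, a nuclear body protein, had 5.60 and 6.05 against 7.05 and 6.90 and fell by 1.15 (SE 0.22, 2.22-fold lower, limma adjusted p = 0.0335). All 5 SP110 probe sets were negative, from -0.22 to -1.15. SP110 did not pass without CD133+ replicate 1 (limma adjusted p = 0.0801), CD133- replicate 1 (0.148) or CD133- replicate 2 (0.0563).

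Among the rest, 0 of 20 further signalling genes passed in limma, with 2 at an unadjusted p under 0.05, against 20.6% of all genes. TBK1, the kinase that activates IRF3, was nearest, with 8.84 and 8.75 against 8.35 and 8.26, a difference of 0.49 (SE 0.12, limma adjusted p = 0.0671). CALR, the chaperone of the peptide-loading complex, was at 0.55 (SE 0.13, limma adjusted p = 0.0633), with 2 of 3 probe sets positive, and CANX, calnexin, at 0.26 (SE 0.075), neither past the threshold. RFXAP, part of the complex that binds MHC promoters, had 5.79 and 5.63 against 6.54 and 6.40. Its -0.76 (SE 0.20) did not pass (limma adjusted p = 0.0871), and its other, dimmer probe set had the opposite sign, 0.088. Of the interferon-induced genes next by p, ZBP1, a sensor of Z-form nucleic acid, was at 0.63, and UBE2L6, the enzyme that conjugates ISG15, at 0.69. NMI, a partner of STAT proteins, was at -0.45, and LAP3, an aminopeptidase, at -0.31. These 4 had limma adjusted p between 0.118 and 0.170. MICA and MICB, other NKG2D ligands, were at -0.38 and 0.39 (limma adjusted p = 0.194 and 0.202). Of 28 further induced genes only SP110 passed. At an unadjusted p under 0.05, 5 had a positive and 4 a negative difference, where 20.6% of all genes passed. Of the 8 interferon genes with a probe set, 7 were below the filter.

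Leukocytes express many of these genes at a high level, so their markers were read on the same arrays. None of 9 tested leukocyte markers passed in limma, also at an unadjusted p under 0.05. Their summed log2 signal over the 11 markers with a probe set was 48.2 and 48.6 in the CD133+ clone against 46.2 and 47.5 in the CD133- clone. Of the 9 tested, 6 had a positive and 3 a negative difference, from -0.39 for LYZ to 0.40 for HLA-DRA and 0.48 for CD74. The median signal of the 11 was 4.04, close to the lowest level tested. PTPRC, the pan-leukocyte marker CD45, was at 3.84 and 3.57 in the clone means and below the filter. Of the 9 epithelial markers 4 had a positive and 5 a negative difference, from -0.35 for VIL1 to 0.39 for CDX1. EPCAM, at -0.26, and CDH1, at 0.26, had clone means of 12.05 and 12.31, and 11.58 and 11.31. None of 9 epithelial or 8 stromal markers passed in limma, with 4 and 0 at an unadjusted p under 0.05, against 20.6% of all genes.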

How the data were processed

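Per the submitters' processing notes, the arrays were processed with Affymetrix Expression Console, with no version given. The deposited values are log2 probe-set signals, as their range of 2.52 to 14.57 shows. Background correction, normalization and summarisation are not given in the sources used here. Of 54675 probe sets, 62 Affymetrix controls were left out. The deposited array medians spread by 0.144, above a limit of 0.1, so the values were quantile normalized, which removes any overall difference between arrays. Genes were named through the platform annotation, 41091 probe sets naming 1 gene and 1801 several, and 19735 of 19775 genes matched RefSeq by gene ID. Only members could use probe sets naming several genes. A filter on level removed the lowest 20% (3955 genes). The clones' arrays were tested in limma 3.58.1 under R 4.3.3 (lmFit, eBayes with trend, Benjamini-Hochberg over 15820 genes). Precision is limited by having 4 arrays: the median standard error was 0.178, and an exact permutation test of 2 against 2 arrays cannot give a two-sided p below 0.333. Per-array values were given for called members, up to 5 further members of each role by p, and a fixed list. Other members and the probe sets, neighbours and promoters shown beside them were added after their values were seen, as were DHX58, MICA and MICB; further pathway genes were named if called or by p. Protein sequences were not used. The members and lists were chosen with earlier results of these data known. Promoters and figures used Python 3.11.15.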

Additional observations from a re-analysis of the deposited data

How the results depend on the processing

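The calls depended on the variance model and the arrays more than on the filter. The count over all genes was 12 without a trend of variance on level, 242 with probe sets averaged per gene, 96 with all probe sets fitted one by one, and 120 to 725 with 1 array left out, 120 without CD133- replicate 1 and 343 without CD133- replicate 2. The 3 induced members became 0 without the trend and 0 with probe sets one by one, 1 with probe-set means, and 1 to 4 with 1 array left out, 1 without CD133- replicate 1. IFITM2 was at a limma adjusted p of 0.0993 without the trend and IFITM3 at 0.114. The 2 further pathway genes became 0 without the trend, 1 with probe-set means, 1 one by one, and 1 to 3 with 1 array left out. Signalling and class I members had 0 calls under each alternative but the replicate block. The labels number both clones' arrays 1 and 2, and same-numbered arrays deviated together (r = 0.429 across genes, which are not independent), but with 2 pairs and no stated pairing they share only a number. With the replicate block, 3027 genes, 6 induced, 2 signalling, 3 class I and 17 further pathway genes were called. Directions turned, in members that were not called, for IFIT2 0.037, IFNGR1 -0.10, TAP2 -0.12, TAPBP -0.053 and PSMB9 -0.089 in the deposited values, for IFNGR1 -0.18, JAK1 -0.050, TYK2 -0.056, IRF1 -0.055, HLA-F -0.017, B2M -0.020, TAP2 -0.20, TAPBP -0.13 and PSMB9 -0.17 with centred arrays, for OAS2 -0.20, IFITM1 0.082, XAF1 0.086, JAK1 -0.14, IRF9 -0.0047 and B2M -0.011 with probe-set means, and for IFITM1 at 0.33 with probe sets naming 1 gene. With 1 array left out, where the lone array is assumed to vary like the other clone's, they turned somewhere in the ranges IFIT2 -0.14 to 0.053, IFIT5 -0.43 to 0.060, OAS2 -0.17 to 0.31, IFI6 -0.50 to 0.34, IFI27 -0.36 to 0.19, HERC6 -0.024 to 0.24, USP18 -0.19 to 0.61, IFNAR1 -0.43 to 0.18, IFNGR1 -0.11 to 0.14, IFNGR2 -0.17 to 0.0047, HLA-F -0.050 to 0.28, B2M -0.025 to 0.16, TAP1 -0.10 to 0.093, TAP2 -0.0078 to 0.10, TAPBP -0.072 to 0.20, PSMB8 -0.14 to 0.016 and PSMB9 -0.50 to 0.54. IFITM2, IFITM3, ISG15 and IFIH1 kept their direction under each alternative run. With no filter on level, all 28 induced members were tested and the 3 calls were those already made.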
